A study of Homo sapiens with 6 samples.

Results

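Angiomotin-like 2 (AMOTL2) is a scaffold that binds and restrains the coactivator YAP. Its RNA was 2.63-fold higher 4 h after light than without light in HEK293T cells carrying a light-activatable human TET2. The 10 genes described here are the angiomotin family (AMOT, AMOTL1 and AMOTL2), the YAP/TEAD target genes CCN1, CCN2 and ANKRD1, the Hippo regulators LATS2 and AJUBA, and the coactivator genes YAP1 and WWTR1. They were taken by symbol from the 60179 gene features of the deposited table, and all 10 were found and passed the low-count filter. The set was chosen on the rise of AMOTL2 over caged cells, so the AMOTL2 values against caged cells are given as a description, with no test. The other 9 genes belong to the set by their place in the pathway, and earlier results of these data were known when they were picked.

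HEK293T, an embryonic kidney line made permanent with adenoviral genes and later given SV40 large T antigen, carried the plasmids pShP2419 and pStH1169 after co-transfection. The cells were kept for 48 h with a caged serine, 4,5-dimethoxy-2-nitrobenzyl-L-serine, at 0.1 mM, whose light-sensitive cap blocks the side chain until it is removed. TET2 oxidises 5-methylcytosine in DNA. The study made 3 groups of 2 libraries from sorted transfected cells (500000 per sample): no light at 0 h (caged), and 4 h or 8 h after 3 min at 365 nm (uncaged). All groups carried the plasmids, received the caged serine and were washed, no group received light without the enzyme, and none was kept in the dark for 4 h or 8 h, so light, the uncaged enzyme and elapsed time cannot be told apart. No label says whether the 2 replicates of a group came from different cultures, and p-values may then measure technical spread only.

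In the Hippo pathway the kinases MST1/2 (genes STK4 and STK3) activate LATS1 and LATS2, which phosphorylate YAP and its paralogue TAZ (gene WWTR1) and keep them out of the nucleus. When they are not phosphorylated, YAP and TAZ bind TEAD factors on DNA and raise genes such as CCN1, CCN2 and ANKRD1. AMOTL2 and LATS2 are themselves YAP/TEAD targets and restrain YAP, which makes a feedback loop, and angiomotins also hold YAP at cell junctions.

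Library totals ran from 17490010 to 20025955 estimated counts, of which plasmid sequences took 11.5% and 11.8% in caged cells and 14.8% to 15.5% after light. All 10 markers fixed for HEK293T and embryonic kidney passed the filter, with summed levels of 721 and 760 CPM (counts scaled to library size) in caged cells and 681 to 699 after light. Of these, 1 was called lower at 4 h and 3 at 8 h, and their part in the results was not tested. Summed endothelial and squamous markers stayed at or under 0.830 and 0.0691 CPM in every library, with CDH5, KRT5 and KRT14 at 0 in all 6. Fibroblast markers summed to 17.7 to 21.1 CPM, nearly all from COL1A1 with THY1 at 0, and immune markers to 4.8 to 6.57 CPM with CD3E at 0. In bulk RNA, fewer cells of a type and less RNA per cell cannot be told apart.

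Of the 9 genes beside AMOTL2, 4 were higher at 4 h (AMOT, CCN1, CCN2 and LATS2) and none lower by edgeR's quasi-likelihood test, with an adjusted p under 0.05 over 17449 features. Both comparisons share the 2 caged libraries. By the unadjusted p at 4 h, 6 of the 9 were under 0.05, and of these AMOTL1 was lower. DESeq2 and limma-voom also called none lower. In that comparison 6.16% of all features were called higher and 3.56% lower. At 8 h 4 of the 9 were higher (AMOT, CCN1, ANKRD1 and LATS2) and 1 lower (AMOTL1), where 14.9% of all features were called higher and 13.2% lower. Between 4 h and 8 h edgeR, DESeq2 and limma-voom each called 1 of the 9, AMOT, lower and none higher. By edgeR 1.21% of all features were called lower there and 2.05% higher. DESeq2 gave ANKRD1 and CCN2 no adjusted p in that comparison, so it could call neither. ANKRD1 alone was higher at an unadjusted p under 0.05. The median log2 fold change of the 9 genes was 0.41 at 4 h and 0.35 at 8 h, against -0.0061 and -0.0046 over all features. Scaling by library totals lowered the share of all calls that were higher from 63.3% to 44.7% at 4 h, from 53.0% to 29.03% at 8 h and from 62.8% to 35.4% between them.

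**Figure D1:**
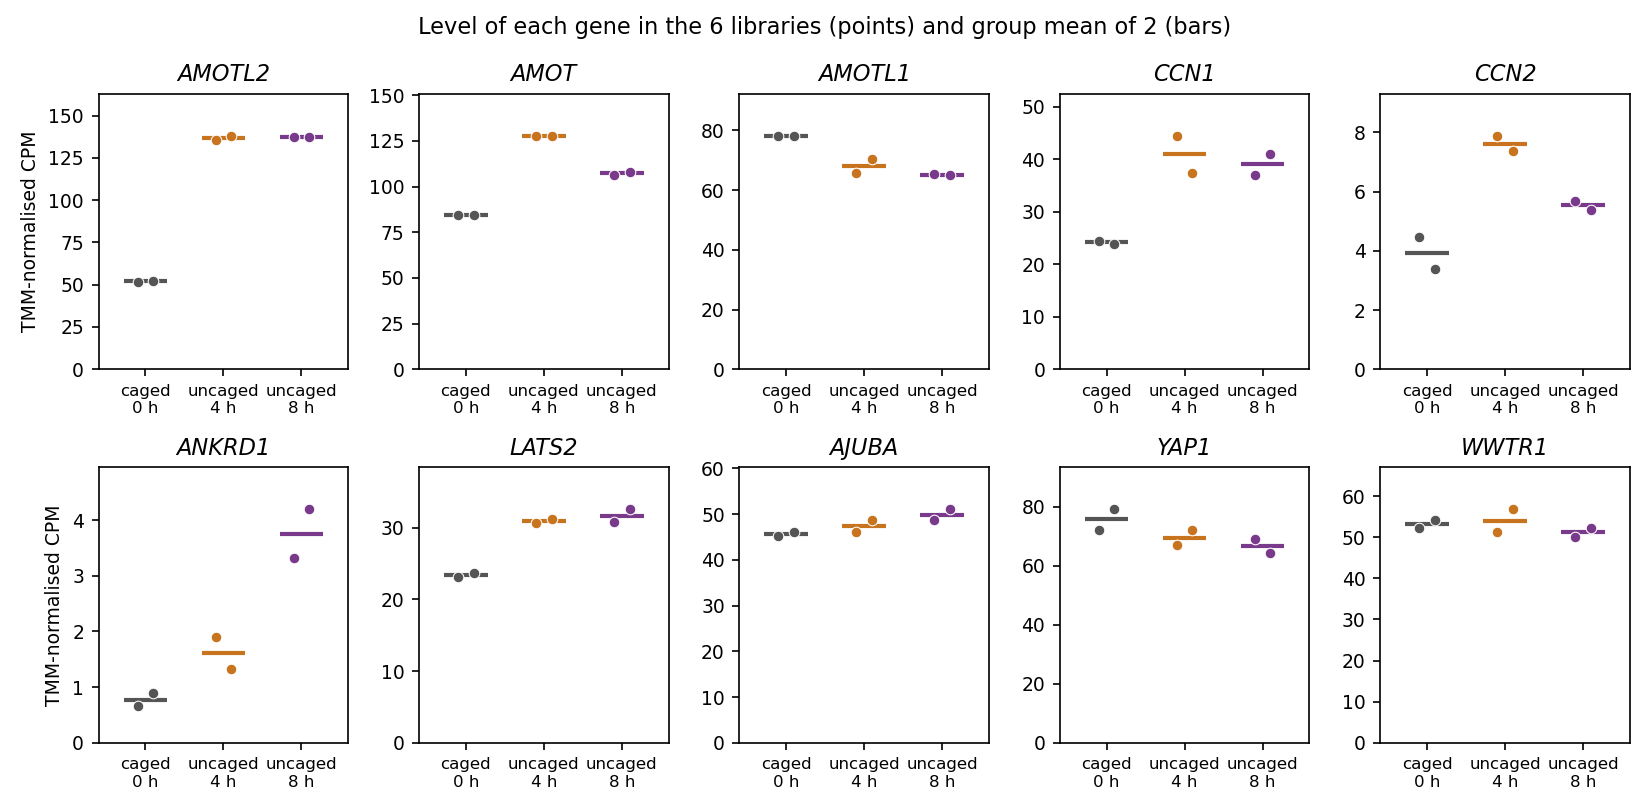
Normalised level (TMM-normalised CPM, y axis from 0) of each of the 10 genes in every library, by group on the x axis; points are libraries and bars the mean of 2. AMOTL2 moves from about 52 CPM in caged cells to 135 CPM or more in the 4 light-exposed libraries, AMOT peaks at 4 h, and ANKRD1 is highest at 8 h.

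The angiomotin genes moved in different directions. AMOTL2 (chromosome 3, 134355874 to 134375479, minus strand, GRCh38) stood at 51.6 and 52.3 CPM in the caged libraries, at 135 and 138 CPM at 4 h and at 137 CPM in both libraries at 8 h. Every light-exposed library was thus more than double every caged one, and the replicates of a group lay close together. The log2 fold change over caged cells was 1.40 ± 0.056 (SE) at 4 h and 1.40 ± 0.056 at 8 h, or 2.63-fold and 2.64-fold. Set beside the 1074 features called higher at 4 h and the 2602 at 8 h, its fold ranked 62nd and 188th. The set was chosen on this rise, so these ranks are a description. From 4 h to 8 h the level did not move beyond its error: the step was 0.0059 ± 0.054, with a 95% confidence interval from -0.12 to 0.13 (edgeR adjusted p = 0.965).

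AMOT, the founding angiomotin (chromosome X, 112774503 to 112840815), was at 84.2 CPM in both caged libraries, 128 CPM in both at 4 h, and 107 and 108 CPM at 8 h. The 3 groups did not overlap, and the level at 8 h lay between the other two. The rise was 0.60 ± 0.054 at 4 h (edgeR adjusted p = 0.00152) and 0.35 ± 0.055 at 8 h (adjusted p = 0.00323). The 4 h call held in all 18 alternatives, and the 8 h call in all but glmTreat against 1.2-fold (adjusted p = 0.139). The drop from 4 h to 8 h was -0.25 ± 0.054 (adjusted p = 0.0483). That call was lost without any 1 of the 6 libraries (adjusted p = 0.0702 to 0.202), with RLE size factors (0.0516), without a low-count filter (0.0992), with the 4 compared libraries alone (0.0593), with a replicate block (0.0795) and against a fold of 1.2 by glmTreat (1.0), over alternatives that ran from 0.0186 to 1.0. The direction was the same in every alternative.

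AMOTL1 (chromosome 11, 94706431 to 94876753), which shares the junctional and YAP-binding roles of the family, went the other way. It stood at 78.3 and 78.2 CPM in caged cells, 65.8 and 70.5 CPM at 4 h and 65.3 and 65.0 CPM at 8 h. All 4 light-exposed libraries were below both caged ones. The change was -0.20 ± 0.063 at 4 h, which did not pass (edgeR adjusted p = 0.0836), and -0.26 ± 0.063 at 8 h (adjusted p = 0.0166). The 8 h call was lost without any 1 of the 4 libraries compared, and under glmTreat against 1.2-fold (adjusted p = 0.617).

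The make-up of angiomotin counts shifted. AMOTL2 took 24.2% ± 0.179 (SD, n = 2) of the family's estimated counts in caged cells, 41.1% ± 0.0106 at 4 h and 44.3% ± 0.0891 at 8 h. All shares of the family include the AMOTL2 counts on which the set was chosen, and are given as a description. The share of AMOTL1 went from 36.5% ± 0.0926 to 20.5% ± 0.683 and 21.0% ± 0.145. AMOT held 39.3% ± 0.0863, 38.4% ± 0.672 and 34.7% ± 0.233. A share also moves with the counts of the other genes in the sum. The AMOT share was lower at 8 h than in caged cells, while its mean level was 107 against 84.2 CPM. AMOTL1 had mean levels of 78.3, 68.2 and 65.1 CPM. These shares are of counts, so longer transcripts weigh more, and only their shift between libraries is comparable. The sum of the 3 genes was 214 and 215 CPM in caged cells, 329 and 336 CPM at 4 h and 309 and 311 CPM at 8 h.

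**Figure D2:**
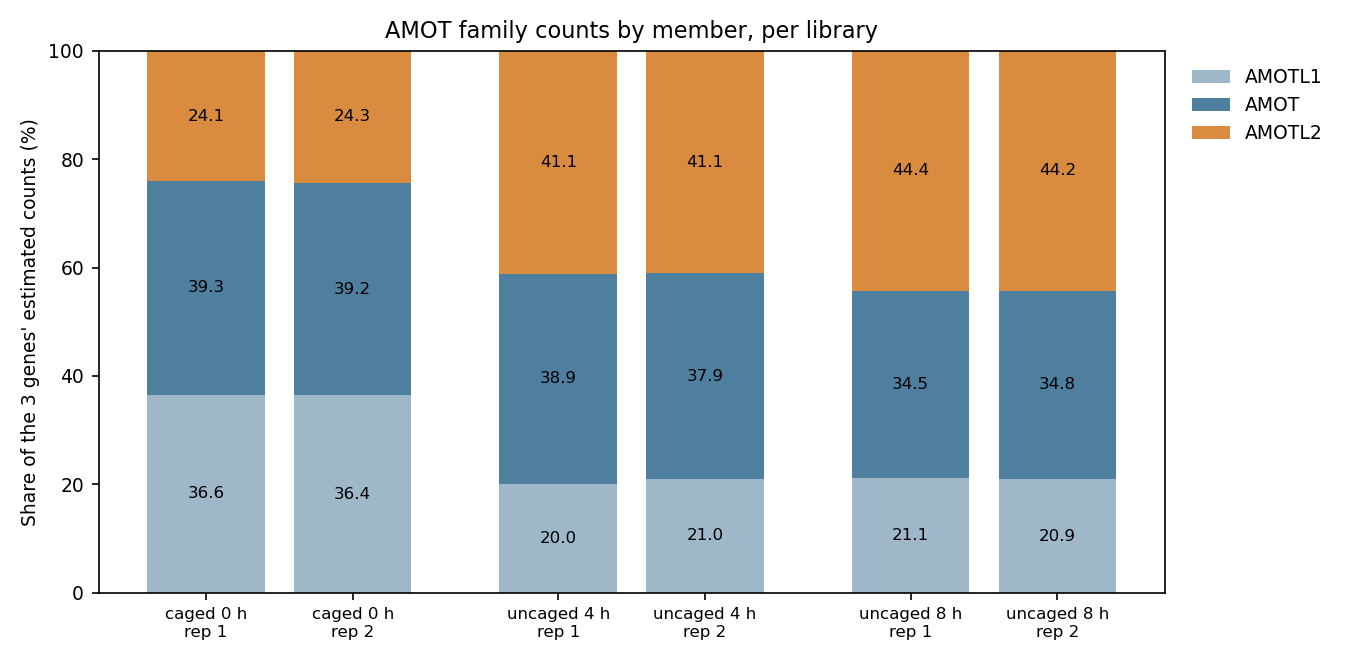
Share (%) of the estimated counts of AMOT, AMOTL1 and AMOTL2 taken by each gene in every library (1 bar per library, stacked to 100%). The AMOTL2 part grows from about 24% in both caged libraries to 41% or more in the 4 light-exposed libraries, while the AMOTL1 part falls from about 36% to about 21%.

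Of the classical YAP/TEAD targets, CCN1 rose at both times, CCN2 passed at 4 h and ANKRD1 at 8 h. CCN1, also known as CYR61, encodes a secreted matrix protein (chromosome 1, 85580761 to 85583962). Its level was 24.5 and 23.9 CPM in caged cells, 44.5 and 37.4 CPM at 4 h and 37.1 and 41.0 CPM at 8 h. The light-exposed libraries overlapped each other and lay above both caged ones. The changes were 0.76 ± 0.10 (edgeR adjusted p = 0.00503) and 0.69 ± 0.10 (adjusted p = 0.00262), and both calls held in all 18 alternatives. The step between the times was -0.069 ± 0.098, with an interval from -0.29 to 0.15, and its sign turned to 0.060 without uncaged 4 h replicate 1.

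CCN2, the connective tissue growth factor gene (chromosome 6, 131948176 to 131951373), stood at 4.48 and 3.38 CPM in caged cells, 7.89 and 7.35 CPM at 4 h and 5.67 and 5.39 CPM at 8 h. The groups did not overlap and the 8 h level lay between the others. It rose by 0.95 ± 0.18 at 4 h (edgeR adjusted p = 0.0159), and stood at 0.49 ± 0.18 at 8 h, which did not pass (adjusted p = 0.0769). The step from 4 h to 8 h was -0.46 ± 0.17 and did not pass (adjusted p = 0.164). The 4 h call was lost without caged replicate 2 or either 4 h library, and under glmTreat against 1.2-fold (adjusted p = 0.0702). Over the 12 settings other than leaving 1 library out, the adjusted p ran from 0.00613 to 0.0702. The gene had 61 to 120 estimated counts a library, and its estimates were not whole (within 0.01) in 5 of 6 libraries, so some of its reads may be divided with another transcript.

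ANKRD1, a cardiac ankyrin repeat gene (chromosome 10, 90912096 to 90921276), was scarce: 12 and 16 counts in caged cells, 29 and 20 at 4 h and 48 and 60 at 8 h. In normalised terms it stood at 0.655 and 0.887 CPM, then 1.91 and 1.33 CPM, then 3.32 and 4.20 CPM. The groups did not overlap, and the levels were ordered with time. At 4 h the change was 1.06 ± 0.35 and did not pass (edgeR adjusted p = 0.0936). At 8 h it was 2.27 ± 0.32, or 4.84-fold (adjusted p = 0.00232), a larger log2 fold change than that of AMOTL2, and this call held in all 18 alternatives. The step from 4 h to 8 h was 1.21 ± 0.30 with an interval from 0.53 to 1.90 and an adjusted p of 0.0667. It passed under robust=TRUE alone (adjusted p = 0.0373), over alternatives from 0.0373 to 0.292. DESeq2 gave this step no adjusted p, so it could not pass there.

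Promoters of these targets are shown because TEAD factors bind DNA by a short motif, GGAATG on either strand. RefSeq windows of the 250 bases before a transcription start (GRCh38.p14) were at hand for 9 of the 10 genes, 12 windows in all. The motif occurred in 5 of these windows, 41.7%, and in 11.9% of all 35116 windows of the same length in the table. As the set was picked to hold YAP/TEAD targets, these shares are a description, with no test. The share of all windows with at least 3 matches was 0.0826%, and with at least 2 matches 0.940%. CCN2 had 3 matches and ANKRD1 had 2, whereas AMOTL2, AJUBA and YAP1 had 1 each, and AMOT, AMOTL1, LATS2 and WWTR1 had none. A loose AP-1 pattern, TGANTCA with any base at the centre, was found in the ANKRD1 window and in 6.57% of all windows. The ANKRD1 string was TGATTCA, which lacks the central C or G of the usual AP-1 site. The CArG box, bound by SRF, was found in none of the 12 and in 1.16% of all windows. A match is a string of letters, not a site shown to be bound, and distal elements were not searched.

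The CCN2 window outside annotated exons (chr6:131951374-131951622, minus strand) is printed 5′ to 3′ with the TEAD motif in capitals. The first bases of its 3 matches lie 169, 104 and 95 bases before the start.
CCN2: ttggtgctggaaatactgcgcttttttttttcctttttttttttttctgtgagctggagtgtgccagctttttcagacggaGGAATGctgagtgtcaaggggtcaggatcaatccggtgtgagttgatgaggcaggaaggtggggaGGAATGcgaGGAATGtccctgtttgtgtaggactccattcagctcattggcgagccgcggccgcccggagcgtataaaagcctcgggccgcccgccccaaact
The matches of the other genes are given with up to 12 bases on either side, in capitals within lower case. Those of ANKRD1 begin 220 and 128 bases before the start (chr10:90921290-90921319 and chr10:90921198-90921227, minus strand), the second inside an annotated exon.
ANKRD1 distal match: atcaccaccaaaGGAATGgccctctcacat
ANKRD1 proximal match: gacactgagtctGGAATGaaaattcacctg
The AMOTL2 match lies on the opposite strand, 69 bases before the downstream of its 2 starts (chr3:134374499-134374528, minus strand), inside an annotated exon. Those of AJUBA (59 bases before the downstream start, chr14:22976884-22976913, minus strand) and YAP1 (162 bases before the start, chr11:102110273-102110302, plus strand) lie within annotated exons too.
AMOTL2: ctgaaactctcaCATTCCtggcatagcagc
AJUBA: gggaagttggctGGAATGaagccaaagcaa
YAP1: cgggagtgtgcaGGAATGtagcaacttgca
CCN2, with 3 matches, was called at 4 h, and ANKRD1, with 2, at 8 h. LATS2 and AMOT, with none in these windows, were called at both times, and AJUBA and YAP1, with 1 each, at neither. AMOTL1, with none, was called lower at 8 h alone, and WWTR1, with none, at neither time. CCN1, called at both times, was the gene without a window. A link between matches and calls was not tested.

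**Figure D3:**
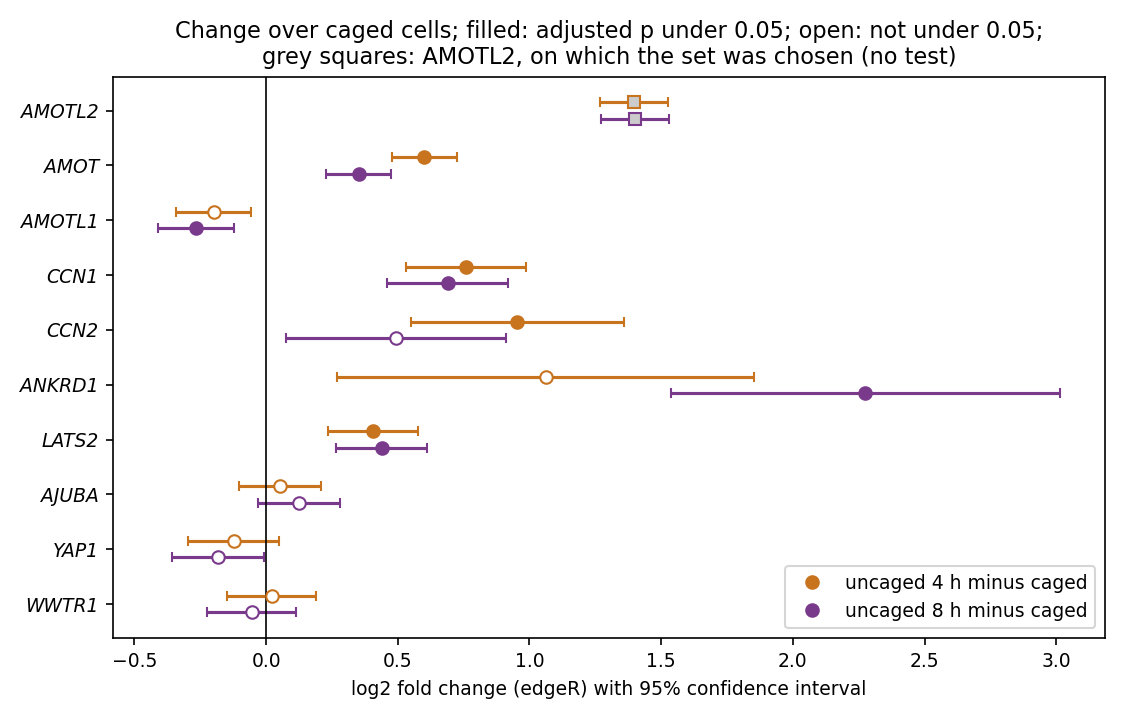
Log2 fold change over caged cells (x axis, edgeR, with 95% confidence intervals) of the 10 genes at 4 h and 8 h. Filled circles passed at an adjusted p under 0.05, open circles did not, and grey squares mark AMOTL2, which chose the set and is not tested; ANKRD1 at 8 h and AMOTL2 lie farthest right, and AMOTL1 and YAP1 lie left of 0.

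LATS2, the kinase that phosphorylates YAP and is itself a YAP target (chromosome 13, 20973032 to 21061547), rose modestly at both times. Its level was 23.1 and 23.7 CPM in caged cells, 30.7 and 31.3 CPM at 4 h and 30.8 and 32.6 CPM at 8 h. The light-exposed libraries were all above the caged ones and overlapped each other. The changes were 0.41 ± 0.075 at 4 h (edgeR adjusted p = 0.0156) and 0.44 ± 0.075 at 8 h (adjusted p = 0.00470), with a step of 0.032 ± 0.075 between them (interval -0.14 to 0.20) that turned to -0.022 with library totals and to -0.0072 without uncaged 8 h replicate 2. The 4 h call was lost without any 1 of the 4 compared libraries. It was also lost under glmTreat against 1.2-fold (adjusted p = 0.235) and in edgeR without a low-count filter (adjusted p = 0.0531). The 8 h call held with each library left out and was lost under glmTreat alone (adjusted p = 0.0645).

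Its paralogue LATS1 was outside the set and rose as well, by 0.28 ± 0.057 at 4 h (edgeR adjusted p = 0.0218) and 0.44 ± 0.057 at 8 h (adjusted p = 0.00166). Its 4 h call was lost without any 1 of the 4 compared libraries. LATS2 held 15.5% ± 0.437 (SD, n = 2) of the summed LATS1 and LATS2 counts in caged cells, 16.6% ± 0.200 at 4 h and 15.5% ± 0.344 at 8 h. AJUBA, a LIM protein that binds LATS kinases and limits their activity (chromosome 14, 22971174 to 22982642), was at 45.3 and 46.1 CPM, then 46.0 and 48.8 CPM, then 48.7 and 51.1 CPM. Its changes of 0.053 ± 0.068 at 4 h and 0.13 ± 0.068 at 8 h did not pass (edgeR adjusted p = 0.672 and 0.198), and the interval at 8 h ran from -0.029 to 0.28.

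The coactivator genes did not pass in any comparison. YAP1 (chromosome 11, 102110461 to 102233423) stood at 72.2 and 79.2 CPM in caged cells, 67.1 and 72.0 CPM at 4 h and 69.2 and 64.2 CPM at 8 h. The light-exposed libraries lay below the caged ones, by a narrow margin at 4 h. The log2 fold changes were -0.12 ± 0.076 (interval -0.29 to 0.050, edgeR adjusted p = 0.344) and -0.18 ± 0.076 (interval -0.36 to -0.0093, adjusted p = 0.106). With library totals YAP1 passed at 8 h (-0.29, adjusted p = 0.0226), where the median of all features stood at -0.11 in place of -0.0046, and the other alternatives gave 0.069 to 0.975. Relative to that median YAP1 stood at -0.18.

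WWTR1, which encodes TAZ (chromosome 3, 149517235 to 149736714), was at 52.2 and 54.2 CPM, then 51.2 and 56.8 CPM, then 50.1 and 52.4 CPM, with overlap between all groups. Its changes were 0.022 ± 0.074 (interval -0.15 to 0.19) and -0.055 ± 0.074 (interval -0.23 to 0.11), with edgeR adjusted p = 0.880 and 0.608. Its estimates were not whole in any of the 6 libraries, so some of its reads may be divided with another transcript too. YAP1 held 58.7% ± 0.967 (SD, n = 2) of the summed counts of both genes in caged cells, 56.3% ± 0.590 at 4 h and 56.6% ± 2.09 at 8 h. The libraries of caged cells and of 8 h overlapped in this share.

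Levels can be set side by side only per transcript length. Per kilobase of annotated exon, YAP1 was the most abundant of the 10 in caged cells at 12.03 ± 0.786 CPM per kb (SD, n = 2), ahead of AMOT (9.91 ± 0.00194) and CCN1 (9.86 ± 0.178), which did not differ beyond their spread. AMOTL2 followed at 8.68 ± 0.0815, then AMOTL1 at 7.80 ± 0.00424, AJUBA at 7.64 ± 0.103, WWTR1 at 6.32 ± 0.161, LATS2 at 4.19 ± 0.0735, CCN2 at 1.68 ± 0.331 and ANKRD1 at 0.390 ± 0.0829. At 8 h AMOTL2 led at 22.9 ± 0.0481, with CCN1 at 15.9 ± 1.14, AMOT at 12.6 ± 0.137 and YAP1 at 10.6 ± 0.566. The 3 targets CCN1, CCN2 and ANKRD1 together kept their order in all groups. The lengths are sums of all annotated exons and can exceed the transcript in use, so this order is approximate.

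The other genes of the pathway moved in both directions, at about the rate of all features. Over all features, 6.16% were called higher and 3.56% lower at 4 h, and 14.9% and 13.2% at 8 h. Between the times the shares were 2.05% and 1.21%. The counts of each list below are to be read beside these shares. Of 78 further genes in 6 lists, 75 were tested, and 5 were higher and 1 lower at 4 h, with a median log2 fold change of -0.012. At 8 h 13 were higher and 11 lower, with a median of -0.040. The split moved with the processing. Library totals gave 4 higher and 4 lower at 4 h, beside 731 and 904 of all features. At 8 h they gave 7 and 20, beside 1595 and 3899. DESeq2 gave 6 and 1 at 4 h, beside 963 and 304, and 12 and 5 at 8 h, beside 2149 and 1237. Between the times 2 were higher by edgeR (GADD45A, 0.42 ± 0.062, and the STRIPAK gene SLMAP, 0.46 ± 0.090) and 2 lower (TEAD1 and MAGI1). None of these 4 was called without either 4 h library or without uncaged 8 h replicate 2. Leaving out 1 library took the 4 h count of 6 to between 1 (without uncaged 4 h replicate 2) and 5, with 2 without either caged library or uncaged 4 h replicate 1. It took the 8 h count of 24 to between 10 and 19: 11 and 10 without caged replicates 1 and 2, and 14 without uncaged 8 h replicate 2.

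Further YAP/TEAD targets moved in both directions. Of 15 tested, 2 were higher and none lower at 4 h: PTPN14, a phosphatase that binds YAP (0.67 ± 0.076, edgeR adjusted p = 0.00318), and FJX1, a Golgi kinase homologue (0.66 ± 0.16, adjusted p = 0.0371). At 8 h both were higher (0.63 ± 0.077 and 0.81 ± 0.16), as was the stress gene GADD45A (0.56 ± 0.062), while CRIM1 (-0.42 ± 0.085) and ARHGEF17 (-0.77 ± 0.24) were lower. The median of these targets was -0.053 at 4 h and -0.23 at 8 h, below 0 at both times. PTPN14 kept its call in all 18 alternatives at both times, and FJX1 at 8 h; FJX1 at 4 h lost it without any 1 of the 4 compared libraries, CRIM1 without caged replicate 1 or uncaged 8 h replicate 2, and ARHGEF17 without any library other than uncaged 8 h replicate 1.

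Among the TEAD factors and their VGLL cofactors none of 7 tested passed at 4 h by edgeR, where TEAD3 stood at -0.32 ± 0.10 (adjusted p = 0.0821) and VGLL2 at -1.14 ± 0.44 (adjusted p = 0.140). At an unadjusted p under 0.05, 1 was higher and 2 lower, and DESeq2 and limma-voom called none either. At 8 h 3 of the 7 were lower and none higher, where 13.2% of all features were called lower and 14.9% higher. The 3 were TEAD1 (-0.23 ± 0.062), TEAD2 (-0.53 ± 0.13) and TEAD3 (-0.40 ± 0.10). DESeq2 called 1 of them and limma-voom 3. TEAD1 was at 66.9, 74.2 and 56.9 CPM in the group means and fell from 4 h to 8 h by 0.38 ± 0.062 (edgeR adjusted p = 0.0267). Each of these calls was lost without some single library, those of TEAD1 without any 1 of the 4 libraries compared, TEAD2 without caged replicate 1 or uncaged 8 h replicate 2, and TEAD3 without either caged library or uncaged 8 h replicate 2.

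In the kinase list 2 of 19 were higher and 1 lower at 4 h: LATS1 and TAOK2 (0.28 ± 0.071) against TAOK3 (-0.52 ± 0.087), the last 2 being upstream kinases of the pathway. At 8 h LATS1, TAOK2 (0.29 ± 0.071) and MAP4K4 (0.19 ± 0.055) were higher, and TAOK3 (-0.42 ± 0.087) and the LATS activator MOB1B (-0.37 ± 0.077) lower. STK3, STK4, SAV1 and NF2, the core kinases, their scaffold and merlin, lay between -0.064 and 0.12 at both times, and none passed. At 8 h 14.9% of all features were called higher and 13.2% lower. Of the 18 STRIPAK genes, whose phosphatase complex acts against MST kinases, 5 were higher at 8 h and none lower. These included the phosphatase subunit genes PPP2CA (0.42 ± 0.063), PPP2R1A (0.34 ± 0.061) and PPP2CB (0.25 ± 0.080), and STRN3 (0.30 ± 0.075). PPP2CB, MAP4K4 and, at 4 h, TAOK2 lost their calls whichever library was left out. STRN3 lost it without either caged library or uncaged 8 h replicate 2, and TAOK3 at 4 h without any 1 of the 4 compared. At 8 h TAOK2 lost it without caged replicate 2 or uncaged 8 h replicate 1, TAOK3 without either caged library or uncaged 8 h replicate 1 and MOB1B without caged replicate 2.

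Of 11 angiomotin partners and ubiquitin ligases, none passed at 4 h by edgeR, with USP9X at 0.16 ± 0.043 (adjusted p = 0.0543) and TNKS at 0.16 ± 0.056 (adjusted p = 0.112). At an unadjusted p under 0.05, 3 were higher and none lower, and DESeq2 and limma-voom each called 1 higher. At 8 h 1 was higher, the deubiquitinase gene USP9X (0.13 ± 0.043), and 3 were lower: the junction scaffold MAGI1 (-0.68 ± 0.068, edgeR adjusted p = 0.000633), RNF146 (-0.30 ± 0.072), the ubiquitin ligase that acts with tankyrase on angiomotins, and NEDD4L (-0.35 ± 0.098). MAGI1 kept its 8 h call in all 18 alternatives and also fell from 4 h to 8 h by 0.62 ± 0.069 (edgeR adjusted p = 0.0144), a call lost without either 4 h library or uncaged 8 h replicate 2. USP9X lost its call whichever library was left out, RNF146 without any 1 of the 4 compared, and NEDD4L without either caged library or uncaged 8 h replicate 2. In the AJUBA and zyxin family none of 5 passed at 4 h by edgeR, DESeq2 or limma-voom (1 at an unadjusted p under 0.05), with ZYX at 0.21 ± 0.089 and LIMD1 at -0.16 ± 0.079, and at 8 h TRIP6 was higher (0.23 ± 0.051) and LIMD1 lower (-0.27 ± 0.081). TRIP6 lost its call without either caged library or uncaged 8 h replicate 1, and LIMD1 without any library other than uncaged 8 h replicate 2.

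**Figure D4:**
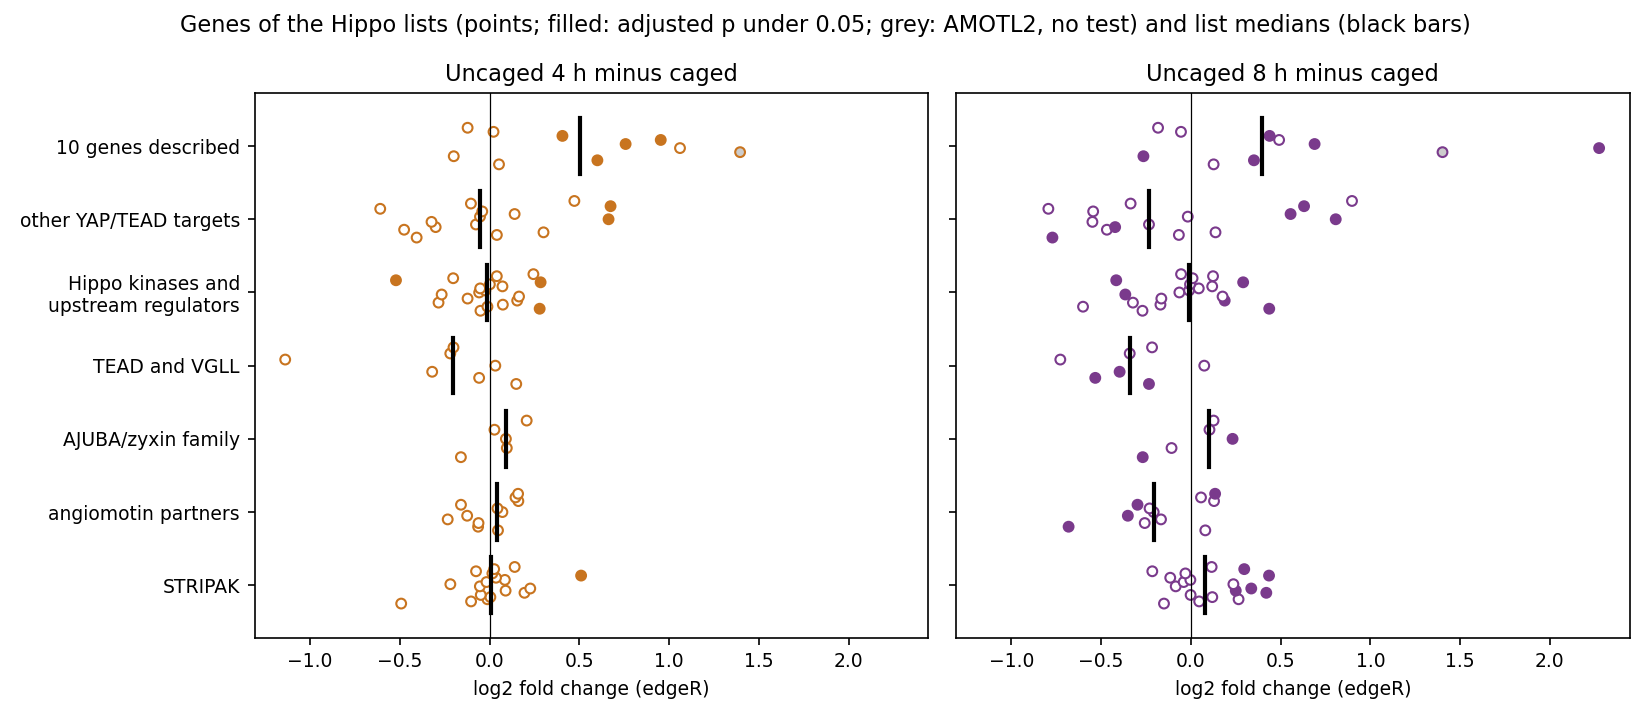
Log2 fold change over caged cells (x axis, edgeR) of each tested gene in the 10-gene set and 6 further Hippo lists, at 4 h (left) and 8 h (right). Filled points passed at an adjusted p under 0.05, grey is AMOTL2 (no test) and black bars are list medians: 0.50 and 0.39 for the 10 genes, which AMOTL2 helped to choose, and between -0.34 and 0.10 for the other lists.

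The genes whose course was most like that of AMOTL2 are given as a description, as that course includes the rise on which the set was chosen. Likeness was the root mean square difference of log2 CPM profiles, each set to 0 at its caged mean, over the 6 libraries and among 15718 tested features with a symbol. The nearest was TEX14, with a difference of 0.136, at 1.26 and 1.22 CPM in caged cells and 3.02 to 4.01 CPM after light. Next came MIR34AHG, the host gene of the microRNA miR-34a, with a difference of 0.141. It stood at 3.66 and 2.99 CPM in caged cells and 9.13 to 10.5 CPM after light. The transcription factor gene ATF5 followed at 0.147, then the keratin pseudogene KRT8P33, whose reads can be shared with KRT8, at 0.156 and MPZL3 at 0.163. No member of the 10-gene set was among these 5, nor any gene of the other pathway lists. The 15718 candidates held only 9 other members and 75 further pathway genes, so this absence was likely beforehand.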

How the data were processed

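Messenger RNA was measured in 6 HEK293T libraries, 2 in each of 3 groups taken from the titles. The values deposited by the authors are estimated counts per gene feature (expected counts with no normalisation). The submitters' processing notes name Salmon 1.1.0, GRCh38, R 3.6.1 and DESeq2. For the annotation and the strand setting, the sources used here give nothing. Of 60179 features 41692 have a symbol, joined by gene ID, and coordinates and exon lengths come from GENCODE 29 on GRCh38. Plasmid rows entered neither library sizes nor tests.

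Counts were rounded, filtered with filterByExpr (minimum count 10, minimum total 15) and scaled by TMM. The quasi-likelihood test of edgeR 4.0.16 (R 4.3.3, legacy=TRUE, no covariates) was fitted on all 6 libraries and 17449 features, with 3 residual and 5.43 prior degrees of freedom. P-values were Benjamini-Hochberg adjusted over all tested features, and called means an adjusted p under 0.05. The SE is the size of the log2 fold change over the square root of F. The procedure was tested on simulated counts. A count of 0 allows up to 3 counts, or 0.170 to 0.201 CPM. Counts of replicates were further apart than sampling allows (chi-square over its degrees of freedom, 3.44 to 4.00).

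The members, lists, markers (HEK293T, fibroblast, endothelial, immune, squamous), alternatives and naming rule were chosen with earlier results of these data known. The rule names the 10 members, up to 4 called genes of smallest adjusted p per list (2 by p where none was called) and the 5 profiles nearest AMOTL2. ARHGEF17, MAP4K4 and PPP2CB, each the fifth called of a list, and STK3, STK4, SAV1 and NF2 were added after their values were seen. A gene that the rule names is not reported here. Alternatives were RLE factors, library totals, cyclic loess offsets, DESeq2 1.42.0, limma-voom (limma 3.58.1), glmTreat against 1.2-fold, no low-count filter, a minimum of 1 CPM in any 2 libraries, a replicate block, robust=TRUE, the 4 compared libraries alone, plasmid sequences included, and each library left out. Leaving one out gives its group a single library, whose spread is taken from the other groups.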

Additional observations from a re-analysis of the deposited data

Results flagged for a closer look

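The change of AMOT over caged cells differed between the times: the test of 8 h against 4 h itself gave a log2 fold change of -0.25 (edgeR adjusted p = 0.0483), with both 8 h libraries below both 4 h libraries. Both rises share the same caged libraries, and the call was lost when any 1 of the 6 libraries was left out.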

How the results depend on the processing

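Of 504 values of single members under the alternatives, those of AMOTL2 over caged cells left out, 458 kept their direction and their side of the threshold, 28 lost a call, 4 gained one, 12 changed sign, none of these called, and 2 had no adjusted p (CCN2 and ANKRD1 between 4 h and 8 h under DESeq2). Without AMOTL2, 4 members were called at 4 h, 5 at 8 h and 1 between them. The counts that follow include AMOTL2, whose calls over caged cells were fixed by the choice of the set and show nothing of stability: 5, 6 and 1 in all. With each library left out they ran from 3 to 5, from 5 to 6 and at 0. Under glmTreat they were 3, 3 and 0. Between 4 h and 8 h the count was 0 with RLE size factors, no low-count filter, the replicate block and the 4 compared libraries alone, and 2 with robust=TRUE. The 6, 24 and 4 other pathway genes called ran from 1 to 5, from 10 to 19 and from 0 to 3 with each library left out. Under glmTreat these were 1, 5 and 0. They were 3 at 4 h and 1 between the times without a low-count filter, and 14 at 8 h with cyclic loess offsets. With robust=TRUE they were 10 at 4 h, and with the replicate block 2 between the times. DESeq2 did not call FJX1 at 4 h, nor ARHGEF17, LIMD1, NEDD4L, PPP2CB, TAOK3, TEAD1 and TEAD3 at 8 h. With library totals TAOK2 was called at neither time. MAP4K4, PPP2CB, STRN3, TRIP6 and USP9X were not called at 8 h with library totals. Over all features glmTreat called 155 higher and 62 lower at 4 h and 788 and 619 at 8 h, and no filter 447 and 264 at 4 h, against 1074 and 622, and 2602 and 2306. Between the times they were 9 and 0 with glmTreat, 48 and 5 with no filter and 631 and 420 with robust=TRUE, against 358 and 212. All calls with each library left out ran from 226 to 1615 at 4 h, from 2275 to 4315 at 8 h and from 6 to 274 between them. Of the calls made by DESeq2, 76.0%, 63.5% and 76.7% were higher. The steps that changed sign all stood near 0. WWTR1 at 4 h was -0.028 with library totals, -0.010 without a low-count filter, -0.0037 without caged replicate 1 and ran from -0.064 (without uncaged 4 h replicate 2) to 0.096 with each library left out. Between the times WWTR1 ran from -0.15 to 0.0029 (without uncaged 4 h replicate 2). The AMOTL2 step was -0.048 with library totals, -0.014 with cyclic loess offsets and ran from -0.012 (without uncaged 4 h replicate 1) to 0.025. The CCN1 step ran from -0.19 to 0.060 (without uncaged 4 h replicate 1), with 0.0064 without uncaged 8 h replicate 1. That of LATS2 was -0.022 with library totals and ran from -0.0072 (without uncaged 8 h replicate 2) to 0.078. CCN2 at 8 h gained a call with cyclic loess offsets (0.64, adjusted p = 0.0340), and AMOTL1 at 4 h with library totals (-0.25, adjusted p = 0.0447). The causes were not tested.

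Replicate numbers are shared between groups, but same-numbered libraries did not deviate together (r = 0.00081, 0.047 and -0.050 over 17449 features), so the block was an alternative. With it the count of all calls went from 1696 to 1039 at 4 h, from 4908 to 4407 at 8 h and from 570 to 193 between them, and the AMOT step lost its call (-0.25). Depth limits ANKRD1 and CCN2 most, at 12 to 60 and 61 to 120 counts a library.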
